A study of Mus musculus with 12 samples.

Results

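The 14 probe sets described here measure 10 genes of the endothelium, the cell layer that lines blood vessels, on a microarray of 45101 probe sets. They cover Tmem100 and the receptors of the ALK1 axis (Acvrl1 and Eng), the receptors of vascular endothelial growth factor (Kdr and Flt1), the angiopoietin receptor pair (Tek and Tie1) and 3 genes of endothelial junctions and secretion (Cdh5, Pecam1 and Vwf). The probe sets were chosen by gene with the tumor results of these arrays already known, so every difference between tumor and normal lung below is a description of its size and not a test. Each probe set is a group of short probes for RNA, given by its number on the array, and its gene name is the one by which it was chosen.

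RNA was measured in 12 tissue samples from male FVB mice at 7 to 11 months of age, 4 in each of 3 groups: lung of FVB mice without a transgene, adjacent normal lung of transgenic mice, and adenocarcinomas of transgenic mice. Both transgenic groups carried wild-type human cyclin E under the human surfactant protein C (SP-C) promoter, which drives expression in alveolar type II epithelial cells, so the transgene was directed to the epithelium and not to endothelial cells. The study asked how gene expression in the tumors differed from that of both kinds of normal lung. Tissue was picked by gross pathology and whole pieces were extracted, so a lower signal from fewer endothelial cells and one from less RNA per endothelial cell cannot be told apart in any result below. Values are log2 signals, on which a difference of 1 is a change of 2-fold. The median of the table was 4.18, and the number of arrays limits the precision.

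Endothelial cells sense the circulating ligands BMP9 and BMP10 through ALK1, a receptor kinase encoded by Acvrl1, with endoglin (Eng) as its co-receptor. Tmem100 encodes a small transmembrane protein that is induced by ALK1 signaling in endothelium and is needed for vessel formation in the embryo. The lung is rich in capillaries, and all of these genes are known to be active in its vessels.

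Promoter sequence is shown as background, and whether these genes share control was not tested. RefSeq sequence of the GRCm38.p6 mouse genome was at hand for 5 of the 10 genes (Eng, Flt1, Kdr, Tek and Tie1), as the 250 bases before the transcription start. AGGAAG is a form of the site recognized by transcription factors of the ETS family, which are active in endothelium. This motif was searched on both strands (CTTCCT on the other). It was found in 3 of the 5 windows and in 29.5% of all 32851 promoter windows of that length. The 3 windows that held it are shown 5′ to 3′ with the motif in capitals: Eng at chr2:32646345-32646594 on the plus strand, Flt1 at chr5:147726012-147726261 on the minus strand and Tie1 at chr4:118489850-118490099 on the minus strand.
Eng: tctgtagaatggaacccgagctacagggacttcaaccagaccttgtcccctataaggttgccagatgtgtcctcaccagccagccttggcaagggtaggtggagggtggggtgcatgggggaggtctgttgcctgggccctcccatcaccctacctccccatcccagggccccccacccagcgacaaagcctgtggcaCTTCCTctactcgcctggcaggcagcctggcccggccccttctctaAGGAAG
Flt1: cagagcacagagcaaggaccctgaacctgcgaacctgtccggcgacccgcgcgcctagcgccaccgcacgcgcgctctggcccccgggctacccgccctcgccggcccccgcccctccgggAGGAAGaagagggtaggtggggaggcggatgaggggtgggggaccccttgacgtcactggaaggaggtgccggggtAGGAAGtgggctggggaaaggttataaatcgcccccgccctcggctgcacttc
Tie1: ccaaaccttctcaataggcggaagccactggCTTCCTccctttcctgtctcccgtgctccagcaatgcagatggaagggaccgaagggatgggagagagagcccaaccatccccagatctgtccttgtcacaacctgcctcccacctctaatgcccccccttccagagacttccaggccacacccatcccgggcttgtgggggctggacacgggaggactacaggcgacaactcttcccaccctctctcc
In Eng the motifs began 52 and 6 bases before the start, in Flt1 129 and 53 bases before it, and in Tie1 219 bases before it. The windows of Kdr and Tek held no AGGAAG, and shorter or other forms of the ETS site were not searched. A GATA motif, AGATAA, was in 0 of the 5 windows and in 9.99% of all windows, and CCACCC, read by KLF and Sp factors, was in 4 of the 5 and in 28.1% of all, both strands searched. These matches describe letters in a window and not bound sites.

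Every one of the 14 probe sets was lower in the tumors than in both kinds of normal lung. Tmem100 differed by the most, with tumors at -6.43 against adjacent normal lung on the log2 scale, and Tek, Acvrl1 and Eng followed. The median difference over the 14 probe sets was -3.02 between tumor and adjacent normal lung and -2.95 between tumor and non-transgenic lung, whereas the median over all 23538 probe sets tested was 0.07 in both comparisons. All 14 probe sets passed the filter on low values. With the threshold of Benjamini-Hochberg adjusted p at 0.05 in limma, 14 of 14 were called lower in tumor than in adjacent normal lung, where 15.6% of all probe sets tested were called lower. Against non-transgenic lung 14 of 14 were called lower, where 16.9% of all were. The test across the 3 groups called 14 of 14, and 28.6% of all. All 4 tumors lay below all 8 lungs in 13 of the 14, as they did in 10.6% of all probe sets. These counts follow from how the probe sets were chosen, and nothing is read from them.

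**Figure D1:**
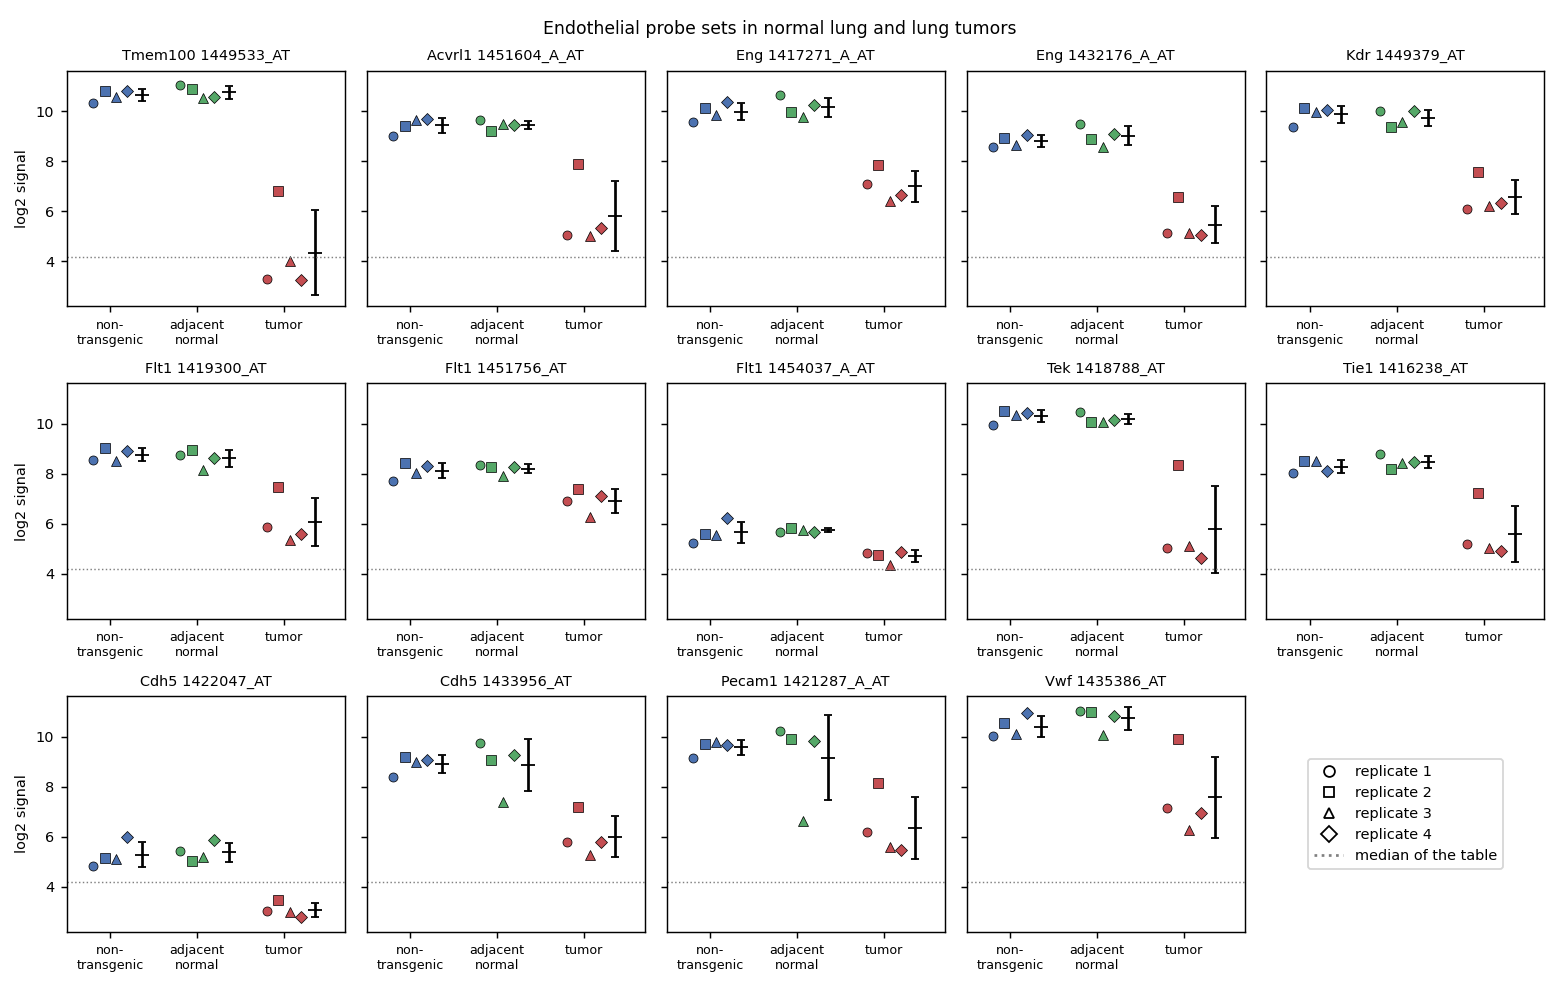
Log2 signal (vertical axes) of each of the 14 probe sets in every array, with non-transgenic lung in blue, adjacent normal lung in green and tumor in red, a marker shape per replicate number, a bar for the mean ± SD of each group of 4, and a dotted line at the table median of 4.18. The tumors lay below the lungs in each panel except for tumor 2 in Pecam1 (8.17), which lay above adjacent normal lung 3 (6.63), and tumor 2 was the highest tumor in 13 of the 14 panels.

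Tmem100 (1449533_AT) had log2 signals of 10.32, 10.81, 10.55 and 10.82 in non-transgenic lungs 1 to 4 and of 11.06, 10.88, 10.51 and 10.58 in adjacent normal lungs 1 to 4. In tumors 1 to 4 it had 3.27, 6.82, 3.99 and 3.23. The 8 lungs thus spanned less than 1 log2 unit, and all of the tumors lay far below them. The group means were 10.63 ± 0.24, 10.76 ± 0.26 and 4.33 ± 1.70 (SD, n = 4 each). The difference was -6.43 between tumor and adjacent normal lung (SE 0.62, 95% confidence interval -7.78 to -5.08, or 86.2-fold lower) and -6.30 between tumor and non-transgenic lung (78.7-fold lower). Among the 23538 probe sets it was the 3rd most negative difference against adjacent normal lung and number 4 against non-transgenic lung. Tumors 1, 3 and 4 lay under the table median, the level that the filter on low values used. With values under that median raised to it, the difference against adjacent normal lung was -5.92 (60.5-fold). Without tumor 2, the only tumor above that median, it was -7.26 (153-fold), and without tumor 4 it was -6.06 (66.7-fold).

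Acvrl1 (1451604_A_AT), the ALK1 receptor kinase, gave 8.99, 9.40, 9.63 and 9.67 in non-transgenic lungs 1 to 4, 9.63, 9.22, 9.50 and 9.46 in adjacent normal lungs, and 5.05, 7.90, 4.99 and 5.31 in tumors. Tumor 2 stood well above the other 3 tumors and still below every lung. The mean of Acvrl1 fell from 9.45 ± 0.17 in adjacent normal lung to 5.81 ± 1.40 in tumor, a difference of -3.64 (SE 0.52, 12.5-fold). This difference was -4.34 without tumor 2 and -3.36 without tumor 3. Against non-transgenic lung (9.43 ± 0.31) the difference was -3.61.

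Eng, the co-receptor endoglin, was read by 2 probe sets. The first, 1417271_A_AT, had signals of 9.57, 10.13, 9.84 and 10.36 in non-transgenic lungs, 10.65, 9.98, 9.76 and 10.24 in adjacent normal lungs and 7.08, 7.83, 6.40 and 6.64 in tumors. The second, 1432176_A_AT, had 8.55, 8.94, 8.63 and 9.04, then 9.48, 8.89, 8.58 and 9.09, and in tumors 5.12, 6.56, 5.12 and 5.04. In both, the 3 groups kept the same arrangement, with the lungs overlapping each other and the tumors apart from them. The differences between tumor and adjacent normal lung, -3.17 (SE 0.30, 8.99-fold) and -3.55 (SE 0.32, 11.7-fold), lay 0.38 apart, about the size of their standard errors. The differences from non-transgenic lung were -2.99 and -3.33.

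Within each array the distance between Tmem100 and the other members turned with the larger fall of Tmem100 in the tumors. Tmem100 minus the median of the other 13 probe sets was between 1.30 and 2.06 log2 units in the 8 lungs and between -2.52 and -0.64 in the 4 tumors, so the groups did not overlap. The value was -2.52, -0.64, -1.29 and -2.24 in tumors 1 to 4. Signals of different probe sets are not on 1 scale, so only the shift between arrays can be read. Tmem100 lay under the table median in tumors 1, 3 and 4, so the size of the shift there is not exact. Tmem100 had the largest fall of the members, which were chosen with the tumor results known. The shift and the lack of overlap follow from that fall and are not a further result.

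Kdr (1449379_AT), which encodes VEGF receptor 2, the main signaling receptor for VEGF in endothelium, gave 9.38, 10.14, 9.95 and 10.03 in non-transgenic lungs, 10.01, 9.37, 9.58 and 10.00 in adjacent normal lungs, and 6.10, 7.55, 6.20 and 6.34 in tumors. The tumors lay below all lungs by a wide gap, tumor 2 included. Group means were 9.88 ± 0.34, 9.74 ± 0.32 and 6.55 ± 0.68. Tumor differed from adjacent normal lung by -3.19 (SE 0.30, 9.15-fold) and from non-transgenic lung by -3.33.

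Flt1, VEGF receptor 1, which binds VEGF tightly and also exists as a soluble form that traps it, was read by 3 probe sets that differed in size. In 1419300_AT the signals were 8.57, 9.04, 8.52 and 8.91 in non-transgenic lungs, 8.77, 8.94, 8.15 and 8.62 in adjacent normal lungs and 5.89, 7.46, 5.36 and 5.61 in tumors. In 1451756_AT they were 7.73, 8.45, 8.04 and 8.30, then 8.35, 8.28, 7.93 and 8.28, and in tumors 6.90, 7.41, 6.27 and 7.12. In 1454037_A_AT they were 5.24, 5.61, 5.56 and 6.24, then 5.68, 5.85, 5.74 and 5.68, and in tumors 4.83, 4.74, 4.34 and 4.89. Each of the 3 had all tumors below all lungs, but the difference of means shrank from the first to the last. The difference between tumor and adjacent normal lung was -2.54 in 1419300_AT (SE 0.38, 95% confidence interval -3.37 to -1.72), -1.28 in 1451756_AT (SE 0.23, -1.79 to -0.77) and -1.04 in 1454037_A_AT (SE 0.20, -1.47 to -0.61). These are 5.83-fold, 2.43-fold and 2.05-fold. The spread of 1.5 between probe sets of 1 gene was the widest among the 3 genes with several probe sets, and whether they read different transcripts was not tested. Against non-transgenic lung the differences were -2.68, -1.20 and -0.97.

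Tek (1418788_AT), the angiopoietin receptor TIE2 that stabilizes vessels, had 9.95, 10.50, 10.36 and 10.42 in non-transgenic lungs, 10.49, 10.06, 10.08 and 10.16 in adjacent normal lungs, and 5.02, 8.36, 5.11 and 4.63 in tumors. Tumor 2 was more than 3 log2 units above the other tumors and still below each lung. The mean of Tek went from 10.20 ± 0.20 in adjacent normal lung to 5.78 ± 1.74 in tumor, a difference of -4.42 (SE 0.63, 21.4-fold). This difference was -5.28 without tumor 2 and -4.04 without tumor 4. Against non-transgenic lung it was -4.53.

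Tie1 (1416238_AT), the related receptor that works together with TIE2, gave 8.02, 8.51, 8.50 and 8.12 in non-transgenic lungs, 8.80, 8.20, 8.45 and 8.49 in adjacent normal lungs, and 5.19, 7.25, 5.02 and 4.91 in tumors. The pattern was that of Tek with a smaller fall: -2.89 against adjacent normal lung (SE 0.42, 7.41-fold) and -2.69 against non-transgenic lung. The tumor mean was 5.59 ± 1.11 against 8.48 ± 0.24 and 8.29 ± 0.26.

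Cdh5, VE-cadherin, the adhesion protein of endothelial junctions, was read by 2 probe sets. In 1433956_AT the signals were 8.40, 9.18, 9.01 and 9.08 in non-transgenic lungs, 9.75, 9.07, 7.40 and 9.28 in adjacent normal lungs, and 5.79, 7.20, 5.28 and 5.78 in tumors. Adjacent normal lung 3 at 7.40 was the lowest lung and lay just above tumor 2. The difference between tumor and adjacent normal lung was -2.86 (SE 0.49, 7.27-fold). It was -3.36 (10.3-fold) without that lung and -2.57 (5.94-fold) without adjacent normal lung 1. In 1422047_AT the signals were 4.82, 5.17, 5.12 and 5.99, then 5.42, 5.04, 5.19 and 5.88, and in tumors 3.03, 3.48, 2.97 and 2.79. All 4 tumors were under the table median in this dim probe set, so its difference of -2.31 (SE 0.26, 4.97-fold) became -1.20 when values were raised to that median. Adjacent normal lung 3 was within the range of the other lungs here. Against non-transgenic lung the 2 probe sets differed by -2.91 and -2.21.

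Pecam1 (1421287_A_AT), the junction protein CD31 used as a general endothelial marker, had 9.14, 9.70, 9.78 and 9.69 in non-transgenic lungs, 10.24, 9.93, 6.63 and 9.85 in adjacent normal lungs, and 6.19, 8.17, 5.61 and 5.48 in tumors. Here the tumors and the lungs overlapped, since adjacent normal lung 3 lay at -2.51 log2 units relative to the lowest of the other 7 lungs and below tumor 2. The difference between tumor and adjacent normal lung was -2.80 (SE 0.76, 95% confidence interval -4.45 to -1.16, 6.99-fold). Without that lung it was -3.65 (12.6-fold), without tumor 2 it was -3.41, and without adjacent normal lung 1 it was -2.44. It was the only member tested that lost its call in any alternative, with adjusted p = 0.053 to 0.057 in limma in 4 of the 24 that were run: without adjacent normal lung 1, without tumor 3, without tumor 4, and with only the 8 arrays of the comparison. Against non-transgenic lung the difference was -3.22 (9.30-fold).

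Vwf (1435386_AT), the von Willebrand clotting factor that endothelial cells store and secrete, had 10.04, 10.54, 10.12 and 10.95 in non-transgenic lungs, 11.04, 11.00, 10.07 and 10.84 in adjacent normal lungs, and 7.17, 9.93, 6.27 and 6.97 in tumors. Tumor 2 at 9.93 lay close under the lowest lung, non-transgenic lung 1 at 10.04. The mean was 10.41 ± 0.42, 10.74 ± 0.45 and 7.58 ± 1.61, with a difference of -3.16 against adjacent normal lung (SE 0.62, 8.91-fold) and -2.83 against non-transgenic lung. The first of these was -3.94 without tumor 2 and -2.72 without tumor 3.

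**Figure D2:**
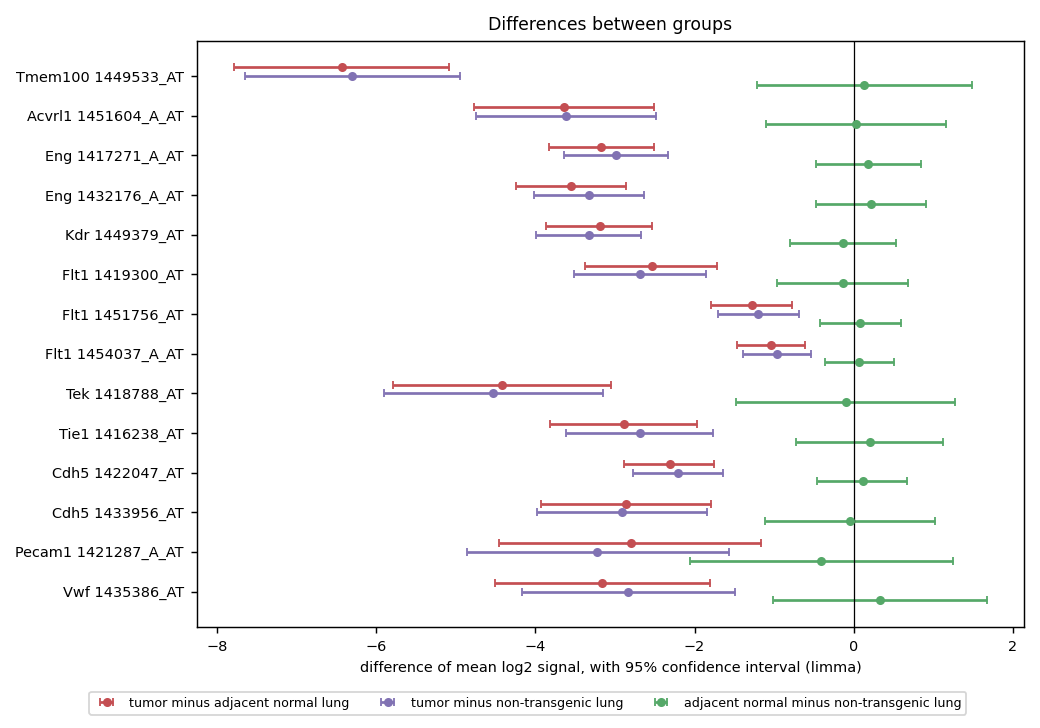
Difference of mean log2 signal (horizontal axis, with 95% confidence interval from limma) for each of the 14 probe sets, with tumor minus adjacent normal lung in red, tumor minus non-transgenic lung in purple and adjacent normal minus non-transgenic lung in green. Tumor differences against adjacent normal lung ran from -1.04 (Flt1 1454037_A_AT) to -6.43 (Tmem100), and all 14 intervals between the 2 kinds of lung held 0.

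The adjacent normal lung of transgenic mice was compared with non-transgenic lung to ask whether these genes already differed outside the tumors. None of them passed the test. The differences ran from -0.41 (Pecam1) to 0.33 (Vwf), with 9 above and 5 below 0 and a median of 0.07 against 0.01 over all probe sets. In limma 0 of the 14 were called, as were 0% of all 23538 probe sets, of which 835 had an unadjusted p under 0.05. The lowest unadjusted p among the 14 was 0.5 in limma and all of the adjusted values were 1. The groups did not overlap in 0 of the 14, against 4.78% of all probe sets. Tmem100 differed by 0.13, Acvrl1 by 0.03, and the 2 Eng probe sets by 0.18 and 0.22.

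These intervals carry the wide spread of the tumors, so the 8 lungs were also fitted alone. Then 0 of the 14 were called and the lowest adjusted p among them was 0.77 in limma, with 0 calls and 1544 unadjusted p under 0.05 over all probe sets. Leaving aside Pecam1 and Cdh5 1433956_AT, the 95% confidence intervals of the other 12 stayed within 0.92 log2 units of 0 (1.89-fold), the widest of these bounds being that of Vwf (-0.27 to 0.92). The interval was -0.25 to 0.51 for Tmem100. For Pecam1 the interval ran from -1.97 to 1.15, and for Cdh5 1433956_AT from -1.04 to 0.95. Without adjacent normal lung 3, which lowered that group in 2 probe sets, the differences ran from -0.08 to 0.55 and 12 of the 14 were above 0. Pecam1 then turned from -0.41 to 0.43 and Cdh5 1433956_AT from -0.05 to 0.45. Vwf at 0.55 and Pecam1 had unadjusted p of 0.027 and 0.036 in limma, and the lowest adjusted p was 0.58. The lung left out was one that was low in these same probe sets. Shares over all probe sets were not counted for this fit, so nothing is read from its counts or unadjusted p.

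Adjacent normal lung 3 stood apart in a few members only. It lay over 1 log2 unit below all of the other 7 lungs in 2 of the 14 (Pecam1 and Cdh5 1433956_AT), against 4.86% of all probe sets tested. For Pecam1 it had 6.63 against a mean of 9.76 in the other lungs, and for Cdh5 1433956_AT it had 7.40 against 9.11. In Flt1 1419300_AT it was lowest by 0.37. In the other 11, among them Tmem100, Tek, Kdr, Vwf and the other Cdh5 probe set, it was within their range. Its array median was 4.38, the highest of the 12, with the others between 4.10 and 4.21. The part of the array as a whole in these 2 low signals was not tested.

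Non-transgenic lung 1 was low in a different way. It was the lowest of the 8 lungs in 10 of the 14 probe sets, against 14.3% of all probe sets tested, but by small steps. The exceptions were Kdr, where adjacent normal lung 2 was lower (9.37 against 9.38), and the 3 probe sets in which adjacent normal lung 3 was lowest. The median over the 14 probe sets was 8.78 in non-transgenic lung 1 and between 9.29 and 9.38 in the other non-transgenic lungs. It was 9.69, 9.15, 8.51 and 9.37 in adjacent normal lungs 1 to 4. Several of the 10 genes have more than 1 probe set and all were read from the same tissue piece, so these are not independent observations.

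**Figure D3:**
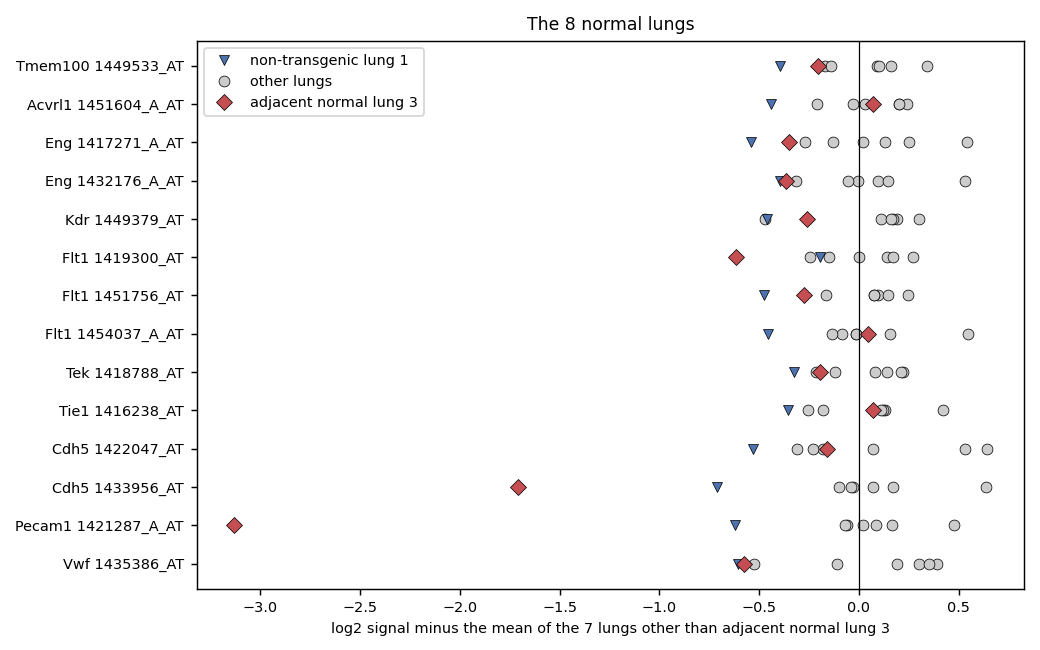
Log2 signal of each of the 8 normal lungs minus the mean of the 7 lungs other than adjacent normal lung 3 (horizontal axis), for the 14 probe sets, with adjacent normal lung 3 as red diamonds, non-transgenic lung 1 as blue triangles and the other lungs in grey. Adjacent normal lung 3 lay at -3.13 in Pecam1, and non-transgenic lung 1 was at the low end in 10 probe sets.

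Among the normal lungs, signals of the other genes tended to be higher where Tmem100 was higher. Over the 8 lungs all 13 other probe sets had a positive Pearson correlation with Tmem100, where 52.2% of all probe sets did. The median r was 0.66 (Spearman 0.71) over these 13 and 0.03 over all. It was highest in Flt1 1451756_AT (0.85), Vwf (0.84) and the Eng probe sets (0.84 and 0.83), and lowest in Cdh5 1422047_AT (0.32), Kdr (0.41) and Acvrl1 (0.45). Acvrl1 and Eng lay toward different ends of this order, and whether their correlations differ was not tested. Without adjacent normal lung 3 the median was 0.68 with 13 positive. Without non-transgenic lung 1 it was 0.59 with 12 positive, and Acvrl1 was the exception (r = -0.05). The 2 lungs farthest from the median Tmem100 signal were adjacent normal lung 1 (11.06) and non-transgenic lung 1 (10.32). Without both, the median was 0.51 with 10 positive, so the relation rests in part on these lungs. The negative values were then those of Tie1 (-0.66), Acvrl1 (-0.42) and Kdr (-0.07). The correlations are a description over few lungs that share their processing, and lungs with more vessel tissue in the piece cannot be told apart from lungs with more RNA per cell.

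Over all 12 arrays the median r with Tmem100 was 0.98 among the 13, and -0.15 over all probe sets, but with the tumors far apart from the lungs these values mainly follow the groups. The probe sets outside the 14 with the pattern most like Tmem100 were 1419905_S_AT (r = 0.999, n = 12) and 1433939_AT (r = 0.998, n = 12). Their tumor signals differed from adjacent normal lung by -7.02 and -4.17. Their genes are not named here.

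Among the tumors, tumor 2 kept the most signal. It was the highest tumor in 13 of the 14 probe sets, as it was in 87.9% of the 3087 probe sets that were at least 2-fold lower in the other 3 tumors than in the lungs. That set was chosen by low signals in the other 3 tumors, which itself favors a high tumor 2, so nothing is read from this share. The exception was Flt1 1454037_A_AT, in which tumor 4 was highest. Expressed as a share of the adjacent normal lungs, Tmem100 signal was 6.53% in tumor 2. In tumors 1, 3 and 4 it lay under the table median, which corresponds to 1.05% of the adjacent normal lungs, so only this upper bound is given for them. For Acvrl1 the shares were 4.72%, 34.2%, 4.53% and 5.68% in tumors 1 to 4, and for Tek 2.75%, 28.0%, 2.94% and 2.10%. Vwf kept 8.42%, 56.9%, 4.52% and 7.32%, and Kdr 7.99%, 21.9%, 8.62% and 9.46%. Tumor 2 thus had the highest share in each of these genes, by a wider margin in Tek, Acvrl1 and Vwf than in Kdr. Tumor 3 was the lowest tumor in 7 of the 14, tumor 4 in 6 and tumor 1 in 1.

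How far tumor 2 had moved from the other tumors toward the lungs, as a percent of that distance on the log2 scale, differed among the genes. It was 82.7% in Vwf, 66.7% in Pecam1, 66.1% in Tie1, 64.6% in Tek and 64.5% in Acvrl1. It was 46.2% in Tmem100, 37.1% in Kdr, 33.5% and 38.6% in the Eng probe sets and 5.17% in Flt1 1454037_A_AT. The median was 47.2% over the 14 and 65.8% over the 3087 probe sets, whose quartiles were 40.3% and 92.3%, and which were chosen by the other 3 tumors. A probe set that lay near background in the other tumors has a less certain value here, as Tmem100 did.

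**Figure D4:**
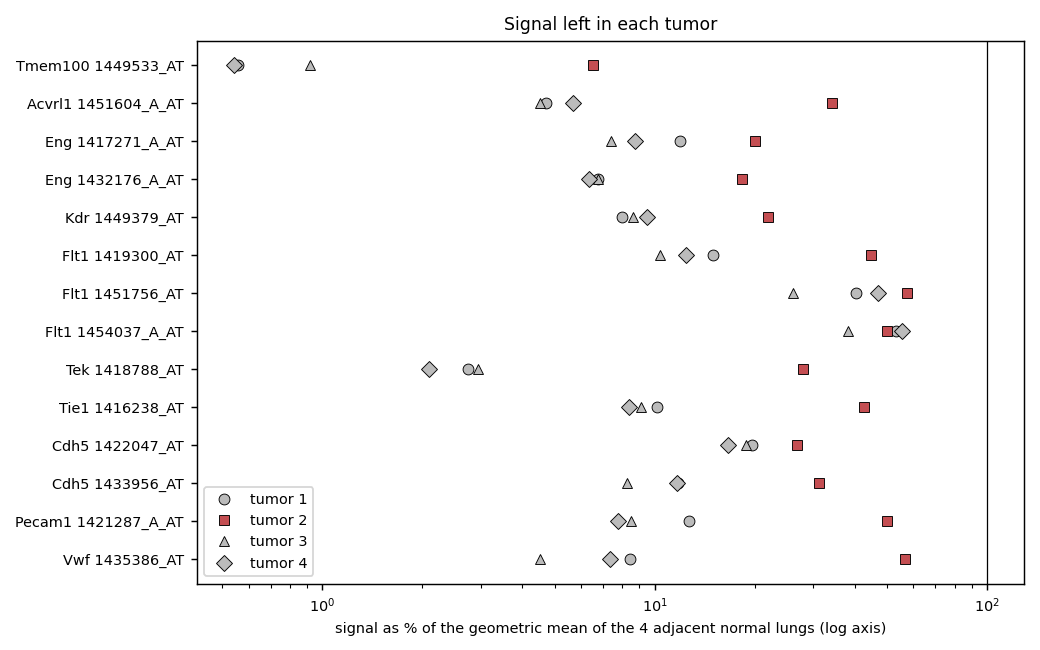
Signal of each tumor as a percent of the geometric mean of the 4 adjacent normal lungs (horizontal log axis) for the 14 probe sets, with tumor 2 as red squares and tumors 1, 3 and 4 in grey. Tmem100 kept 6.53% in tumor 2, its other tumor points lie under the table median (1.05%) and are not exact shares (nor are those of Cdh5 1422047_AT), and tumor 2 lay to the right of the other tumors in all but Flt1 1454037_A_AT.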

How the data were processed

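Total RNA was hybridized as biotin-labelled cRNA to Affymetrix Mouse 430 2.0 arrays, 1 per sample. The deposited values are normalized log2 signals, from 1.5 to 14.51. The methods of the study name Robust Multichip Average with GeneSifter, whereas GCRMA (version not given) stands in the processing notes of the submitters, so the exact procedure is not settled. The genome build is not given in the sources used here. Groups came from the sample titles. The members and lists were chosen with earlier results of these data known.

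A probe set was tested if it exceeded the table median (4.18) in at least 4 arrays, which left 23538 of 45101 (64 controls left out). limma 3.58.1 in R 4.3.3 was fitted over the 3 groups with lmFit and eBayes, and calls were made at Benjamini-Hochberg adjusted p of 0.05. The script was tested on simulated data. Probe sets were not averaged per gene. Every member was named, and the probe sets most like Tmem100 were those of highest Pearson r over the 12 arrays, of which 2 are given. Tissue codes in the labels imply 1 mouse for a tumor and the adjacent normal lung of its number, although the methods speak of 12 independent samples. Between the arrays of a pair, deviations from group means had r of -0.03, 0.10, 0.07 and 0.11. The labels name no batch.

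No table used here pairs probe sets with genes, so lists of further endothelial, ALK1 axis, ligand and cell type marker genes were not analysed here, and the tissue label was not checked against markers of other cell types. Promoters of Tmem100, Acvrl1, Cdh5, Pecam1 and Vwf were not analysed here.

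Alternatives covered the filter (none, or the 75th percentile of 6.47), scaling (quantile or median centring) and a floor at 2.81. They also covered omission of each array or of tumor 2 together with adjacent normal lung 3, and a trended robust fit. A fit of the 8 compared arrays alone and replicate or mouse blocks were run as well. For the test across the 3 groups, the alternative was the analysis of variance of the methods. A floor at the table median, and correlations without non-transgenic lung 1 or the 2 farthest lungs, were added after seeing the data.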

Additional observations from a re-analysis of the deposited data

Results flagged for a closer look

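In 9 of the 48 sets of 4 arrays examined, 1 array stood apart from the other 3 by Dixon's criterion, which chance alone passes in about 1 of 20 sets. In the tumors this was tumor 2, which was high in Kdr (7.55 against 6.10 to 6.34 in the other tumors), Tek (8.36 against 4.63 to 5.11), Tie1 (7.25 against 4.91 to 5.19), Eng 1432176_A_AT (6.56 against 5.04 to 5.12), Acvrl1 (7.90 against 4.99 to 5.31) and the median of the 14 probe sets (7.43 against 5.20 to 5.49). The sets share arrays, so these flags are not independent. The criterion was not run over all probe sets, so the number of flags is not read as particular to these genes.

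In the lungs, adjacent normal lung 3 was low in Pecam1 (6.63, with 9.85 to 10.24 in the others of its group). Non-transgenic lung 1 was low in Pecam1 (9.14 against 9.69 to 9.78) and in the median of the 14 probe sets (8.78 against 9.29 to 9.38).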

How the results depend on the processing

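The 14 probe sets kept the negative direction of both tumor differences under every alternative in which they were tested. The number called was between 12 and 14 in both tumor comparisons, over 24 alternatives against adjacent normal lung and 23 against non-transgenic lung. It was 12 under the stricter filter, which left Cdh5 1422047_AT and Flt1 1454037_A_AT untested, and 13 against adjacent normal lung in the 4 alternatives where Pecam1 missed the threshold. Between the lung groups it was 0 under all 23. The median tumor difference ran from -3.67 to -2.71 against adjacent normal lung and from -3.46 to -2.73 against non-transgenic lung, and that of Tmem100 from -7.34 to -5.92 and from -7.13 to -5.79. With each array left out, they ran from -3.45 to -2.71, -3.46 to -2.73, -7.26 to -6.06 and -7.13 to -5.93. The median between the lung groups, from -0.06 to 0.19, has no settled sign. With tumor and adjacent normal lung paired by mouse (replicate block), 14 were called. On the same 8 arrays without the pairing 13 were, since Pecam1 had an adjusted p of 0.057 in limma unpaired and 0.039 paired. The pairing changed no other call of a member. The members were chosen with the tumor results known, and shares over all probe sets are not given for these alternatives. Nothing is therefore read from the counts of the tumor comparisons. The random block put the correlation within a mouse at 0.056. Depth is not a quantity of arrays, and signals under 4.18, as those of Tmem100 in 3 tumors and of Cdh5 1422047_AT in 4, bound the size of these differences.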
